A study of Drosophila melanogaster with 15 samples.

Results

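The cuticle protein genes of *Drosophila melanogaster* are described here as they were measured in single adult heads. They were taken from the deposited table by their symbols, as the genes named Cpr, Ccp, Lcp or Edg with a number, Pcp, the obst genes and the Twdl genes. Of 11257 genes listed, 56 met this rule, with 61 transcripts, and the transcript with the highest mean level stood for each gene. The 56 comprised 35 Cpr, 8 Lcp, 7 Twdl and 3 obst genes and 1 each of Ccp, Edg and Pcp. The rule uses symbols and no measured difference, but it was chosen with earlier results of these data known.

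The insect cuticle is a layered matrix of chitin fibres and proteins that epidermal cells secrete, and it covers the head capsule, the mouthparts, the tracheae and, as the corneal lens, each facet of the eye. Cpr, Lcp, Ccp, Edg and Pcp proteins carry or are related to the chitin-binding domain known as the Rebers and Riddiford consensus. Tweedle (Twdl) proteins and the obstructors (obst), which have chitin-binding domains of the peritrophin type, are separate families of the same matrix. Many of these genes were first named from larvae and pupae, when a new cuticle is made before each moult. The matrix is hardened and coloured with derivatives of dopamine.

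The tested flies were DAT mutants (*dDATfmn*), in which part of a roo transposon interrupts the gene of the dopamine transporter and which had been backcrossed for 7 generations to the isogenic w1118 strain, and the w1118 flies themselves (WT). Males aged 7 days took agar and sucrose food with 10 mM amphetamine (AMPH) in water or with water alone (vehicle) for 48 h. The 15 libraries, each of 1 head, were 4 of WT AMPH, 4 of WT vehicle, 3 of DAT mutant AMPH and 4 of DAT mutant vehicle. The records give the tissue as brain and the source as adult head.

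Values are RPKM, reads scaled to transcript length and to library size. The size of the libraries, read from the steps between low values, ranged from 11.1 to 77.7 M reads and was lowest in DAT mutant vehicle. DAT mutant vehicle replicate 2 stood apart, with a median of 9.59 RPKM against 15.6 to 18.1 in the others and a highest Spearman correlation of 0.847 with a library of its group against at least 0.97. This library and WT vehicle replicate 1 are not among those whose means match the study's own group means, and the tests below used the other 13 libraries. Values with all 15 follow the counts of members and the calls that they change. The level of *DAT* itself overlapped between strains on vehicle, at 1.98 to 2.37 RPKM in the mutant against 2.18 to 3.12 in WT. On AMPH it did not, at 1.23 to 1.81 RPKM in the mutant against 1.93 to 3.3 in WT. One value per transcript does not show the insertion. Differences are log2 fold changes of RPKM + 1, and the added 1 makes those of low genes smaller than the ratio of their levels. A gene is called at an adjusted p under 0.1 by limma with Benjamini-Hochberg adjustment over every transcript tested. A transcript entered the test where the number of libraries at 1 RPKM or more was no less than the size of the smallest group. Nothing in the records says that flies of one group were reared separately. The library titles carry a prefix that is shared within each group and differs between groups, and its meaning is not given. Whatever it stands for cannot be told apart from the group. The p-values measure the spread between these heads.

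Most cuticle protein genes were low in these heads and a few were abundant. Of the 56 members, 11 averaged at least 10 RPKM over the 15 libraries, 24 averaged 1 to 10 RPKM and 21 less than 1 RPKM. The median member averaged 1.93 RPKM, against 17.3 RPKM over all 18960 transcripts. The 10 most abundant made up 90.1% of the summed mean level and the top 3 made up 70.6%.

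**Figure D1:**
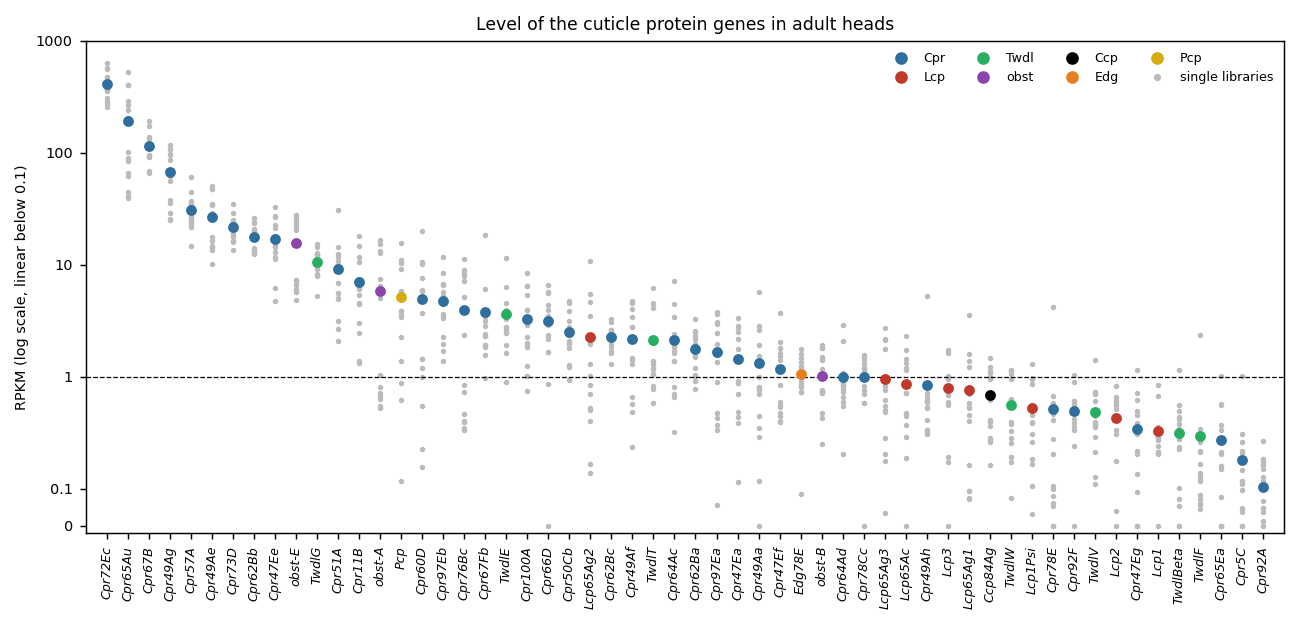
Mean RPKM over 15 libraries of each of the 56 cuticle protein genes (coloured by family), ordered by level, with the single libraries as grey points, on a log axis that is linear below 0.1. The dashed line marks 1 RPKM, and 21 members average less than that.

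The highest member was *Cpr72Ec*, a protein of the corneal lens, with a mean of 408.6 RPKM. It was followed by *Cpr65Au* at 190.5 RPKM, *Cpr67B* at 114.0 RPKM and *Cpr49Ag* at 67.7 RPKM, chitin-binding cuticle proteins of the Cpr family. *Cpr57A* (30.9 RPKM), *Cpr49Ae* (26.6), *Cpr73D* (21.6), *Cpr62Bb* (17.7), *Cpr47Ee* (17.1) and *obst-E* (15.7) completed the 10. The highest member of the Tweedle family was *TwdlG* at 10.6 RPKM, that of the Lcp family *Lcp65Ag2* at 2.26 RPKM, and *Pcp*, *Edg78E* and *Ccp84Ag* averaged 5.15, 1.05 and 0.683 RPKM. The larval genes *Lcp1*, *Lcp2* and *Lcp3* and the pseudogene *Lcp1Psi* averaged between 0.325 and 0.788 RPKM, and *Lcp1*, *Lcp2* and *Lcp1Psi* stayed below the minimum level of the tests in each comparison. In all, 14 members passed the minimum level in no comparison, among them *Cpr92A*, *Cpr5C*, *Cpr65Ea*, *TwdlF*, *TwdlBeta* and *TwdlV*.

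To ask how AMPH changed these genes in flies with the transporter, WT AMPH heads were compared with WT vehicle heads. Cpr genes and both called obstructors were among the members lower after AMPH, and *Pcp* was higher. Of the 56 members, 15 fell and 1 rose, where 34 could be tested. Over all 17584 transcripts tested, 14.8% fell and 7.2% rose. With all 15 libraries 17 fell and 2 rose, beside 19.5% and 10.1% of all transcripts. The falls added there were those of *Cpr49Af* and *Cpr57A*. The 15 fallers with 13 libraries were 10 of 35 Cpr, 2 of 3 obst, 2 of 8 Lcp and 1 of 7 Twdl genes. Since the minimum level lets in genes through the group where they are high, the same fit was also made with no minimum. Then all 56 members were tested, 18 (32.1%) fell and 1 rose, beside 13.6% and 6.72% of all transcripts. Over the 56 the median difference was -0.22, against -0.06 over all transcripts, and over the 34 that passed the minimum it was -0.48, against -0.07. When libraries were centred on their medians, 50.9% of all calls were rises in place of 32.7%, while the members again counted 15 falls and 1 rise. The share of all transcripts that fell or rose after centring is not given here, so these member counts stand without their background.

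The same comparison in flies with the mutated transporter, DAT mutant AMPH against DAT mutant vehicle, gave 13 falls and 1 rise among the 35 members tested, where 15.4% of all transcripts tested fell and 6.71% rose. With no minimum level 16 of 56 members (28.6%) fell and 1 rose, beside 13.7% and 6.32% of all transcripts. With all 15 libraries, DAT mutant vehicle replicate 2 included, 6 members fell and 1 rose, beside 0.78% and 0.689% of all transcripts, and those 6 were all among the 13, namely *obst-A*, *obst-E*, *Cpr76Bc*, *Cpr60D*, *Cpr49Ae* and *Cpr11B*. Centred on medians, 50.6% of all calls in this strain were rises in place of 30.4%, and 11 members fell and 2 rose. These member counts too stand without the share of all transcripts called after centring. The median difference was -0.15 over the 56 members with no minimum, against -0.07 over all transcripts, and -0.25 over the 35 that passed the minimum, against -0.08.

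The strains' AMPH comparisons share no library. Of the members that fell, 9 fell in both strains, which is 60% of the 15 WT falls and 69.2% of the 13 falls of the mutant. Over all transcripts the falls in both strains were 59.1% of the WT falls and 57.2% of the mutant's, so the members' shares lay near or somewhat above those of all transcripts, and the difference was not tested. The 9 were *obst-A*, *obst-E*, *Cpr76Bc*, *Cpr60D*, *Cpr49Ae*, *Cpr11B*, *Cpr100A*, *Cpr62Bb* and *Lcp65Ag2*. With all 15 libraries 6 of them fell in both, as *Cpr100A*, *Cpr62Bb* and *Lcp65Ag2* lost their call in the mutant. *Pcp* was the member that rose in both.

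**Figure D2:**
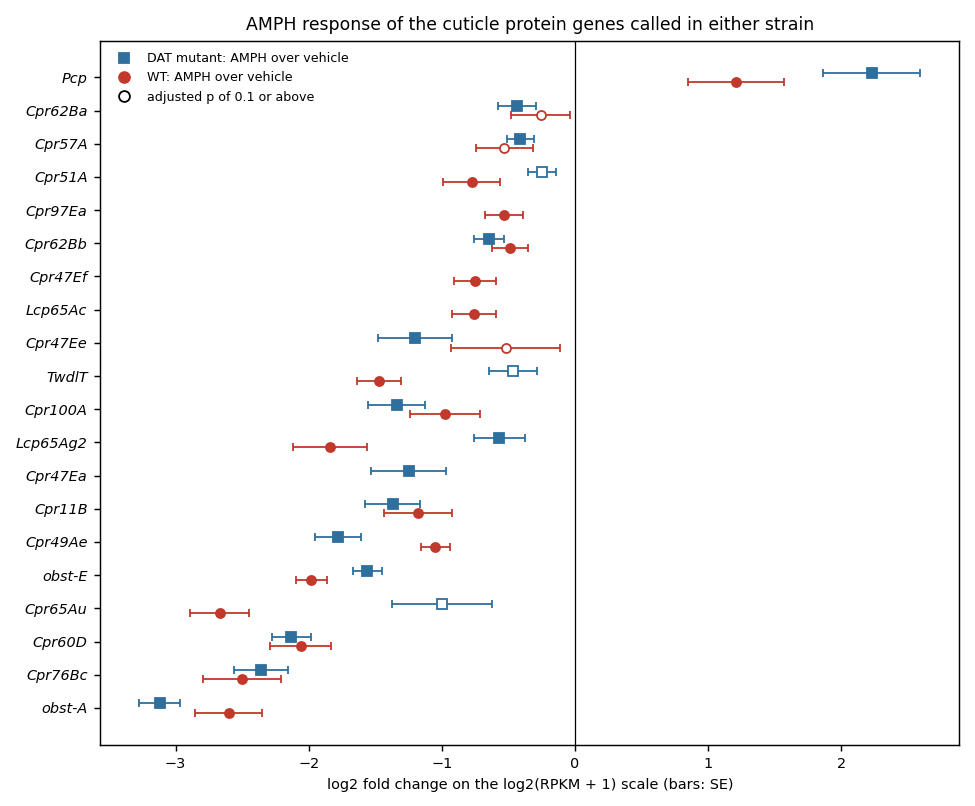
Log2 fold change with its SE of AMPH over vehicle in DAT mutant (squares) and WT heads (circles), on the log2(RPKM + 1) scale with 13 libraries, for the 20 members called in either strain. Filled symbols passed an adjusted p of 0.1, a missing symbol was below the minimum level, and only *Pcp* lies to the right of 0.

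Both called obstructors fell strongly in both strains. *obst-A* (FBgn0031097, chromosome X, 20110934 to 20114254 of dm3), which organises the chitin matrix of the larval cuticle, was at 0.544, 0.626, 0.803 and 0.716 RPKM in WT AMPH heads, against 6.46, 15.4 and 7.49 RPKM in WT vehicle heads and 5.0 in the unused library. DAT mutant heads had 0.677, 0.520 and 1.04 RPKM on AMPH, against 13.2, 16.5 and 12.8 RPKM on vehicle and 6.28 in the unused library. No AMPH head of either strain reached the lowest vehicle head. The mean was 14.5 times lower on AMPH in WT (log2 fold change -2.60, SE 0.25, adjusted p = 0.000847) and 19 times lower in the DAT mutant (-3.12, SE 0.15, adjusted p = 3.19e-05). The lowest AMPH library held an estimated 19.3 reads of *obst-A*.

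*obst-E* (FBgn0031737, chromosome 2L, 5763460 to 5766141), an obstructor that shapes the larval and pupal cuticle, was at 6.51, 4.85, 6.05 and 5.72 RPKM in WT AMPH heads, against 23.1, 27.6 and 26.3 RPKM in WT vehicle heads and 23.3 in the unused library. The DAT mutant gave 6.83, 7.32 and 7.23 RPKM on AMPH, against 23.4, 20.3 and 25.3 RPKM on vehicle and 21.8 in the unused library. The groups were narrow and wide apart in both strains, with a log2 fold change of -1.98 in WT (SE 0.12, adjusted p = 0.000375) and one of -1.56 for the mutant (SE 0.11, adjusted p = 0.000149). Its second listed transcript changed by -1.59 and -1.44. The third obstructor, *obst-B*, averaged 1.01 RPKM and differed by -0.12 in the DAT mutant (SE 0.20, adjusted p = 0.726). In WT *obst-B* was below the minimum level, and with no minimum it differed by -0.50 (SE 0.21, adjusted p = 0.16).

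Among the Cpr genes, *Cpr76Bc* and *Cpr60D* were close to 0 in AMPH heads. They lie on chromosomes 3L (19514367 to 19520374) and 2R (20550374 to 20550929). *Cpr76Bc* was at 0.730, 0.336, 0.461 and 0.347 RPKM in WT AMPH heads, against 8.39, 11.3 and 3.84 RPKM in WT vehicle heads and 7.93 in the unused library (log2 fold change -2.50, SE 0.29, adjusted p = 0.00195). DAT mutant heads had 0.393, 0.405 and 0.846 RPKM on AMPH, against 8.87, 5.11 and 7.11 RPKM on vehicle and 2.36 in the unused library (-2.36, SE 0.20, adjusted p = 0.000426). Vehicle heads of both strains lay above every AMPH head.

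*Cpr60D* was at 0.985, 0.228, 0.156 and 0.544 RPKM in WT AMPH heads, against 5.95, 3.68 and 5.77 RPKM in WT vehicle heads and 4.83 in the unused library. DAT mutant heads had 1.20, 1.44 and 1.43 RPKM on AMPH, against 7.53, 10.6 and 10.1 RPKM on vehicle and 19.9 in the unused library. The log2 fold changes were -2.06 in WT (SE 0.23, adjusted p = 0.00169) and -2.13 in the DAT mutant (SE 0.14, adjusted p = 0.000143). The lowest of these values rests on an estimated 2.98 reads.

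*Cpr49Ae* was at 14.7, 16.3, 14.5 and 14.1 RPKM in WT AMPH heads, against 27.4, 34.5 and 34.4 RPKM in WT vehicle heads and 27.8 in the unused library (log2 fold change -1.05, SE 0.11, adjusted p = 0.00128). The DAT mutant had 10.1, 17.5 and 13.5 RPKM on AMPH, against 46.9, 47.9 and 50.8 RPKM on vehicle and 29.0 in the unused library (-1.78, SE 0.17, adjusted p = 0.000697). The AMPH levels of the strains overlapped, and their vehicle levels did so only through the unused mutant library. *Cpr11B*, on the X chromosome, was at 6.29, 5.38, 6.97 and 3.04 RPKM in WT AMPH heads, against 11.8, 10.6 and 18.1 RPKM in WT vehicle heads and 14.7 in the unused library (-1.18, SE 0.26, adjusted p = 0.0201). The DAT mutant had 1.37, 1.31 and 2.47 RPKM on AMPH, against 7.47, 6.11 and 4.51 RPKM on vehicle and 4.48 in the unused library (-1.37, SE 0.21, adjusted p = 0.00452).

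**Figure D3:**
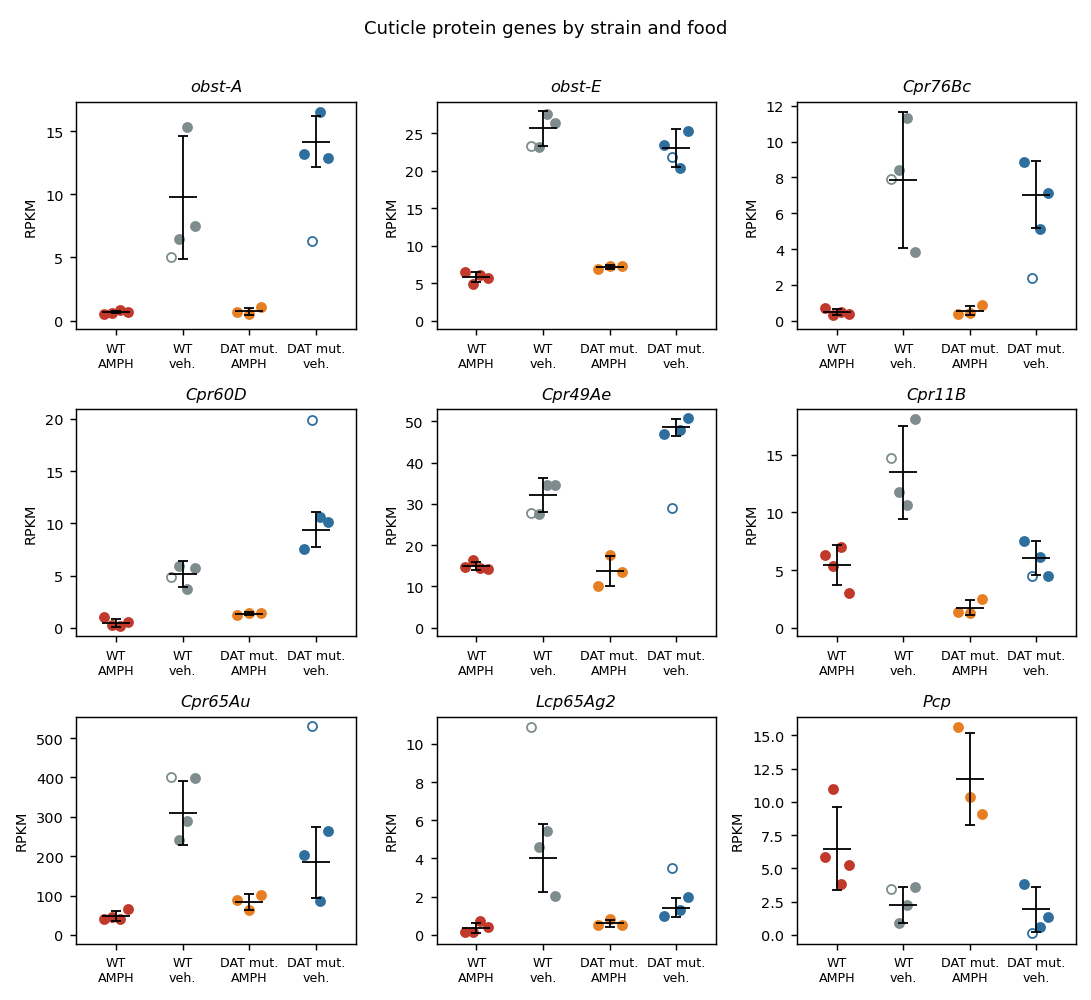
RPKM in each library (points) with mean and SD of the libraries used (bars) for 9 cuticle protein genes in WT AMPH, WT vehicle, DAT mutant AMPH and DAT mutant vehicle heads. Open points are the 2 libraries left out of the tests, and *obst-A*, *Cpr76Bc* and *Cpr60D* lie near 0 in AMPH heads of both strains.

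Smaller falls in both strains were measured for *Cpr100A* and *Cpr62Bb*. *Cpr100A* was at 0.741 to 1.94 RPKM in WT AMPH heads, against 2.24 to 5.39 RPKM in WT vehicle heads (log2 fold change -0.98, SE 0.26, adjusted p = 0.0422, and 0.121 without WT vehicle replicate 3). Its difference in the DAT mutant was -1.34 (SE 0.21, adjusted p = 0.00543, and 0.104 with all 15 libraries). *Cpr62Bb* differed by -0.49 in WT (SE 0.14, adjusted p = 0.0468) and by -0.65 in the DAT mutant (SE 0.11, adjusted p = 0.00755, and 0.65 with all 15 libraries). The WT call of *Cpr62Bb* was lost without WT vehicle replicate 2 or 4 or WT AMPH replicate 2 or 3, at adjusted p from 0.1 to 0.154.

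*Cpr65Au*, the second most abundant member, fell in WT. It was at 39.8, 44.3, 41.1 and 66.4 RPKM in WT AMPH heads, against 241, 289 and 399 RPKM in WT vehicle heads and 402 in the unused library. The mean was 6.47 times lower on AMPH (log2 fold change -2.67, SE 0.22, adjusted p = 0.000593). DAT mutant heads gave 89.0, 62.5 and 101 RPKM on AMPH, against 203, 85.1 and 264 RPKM on vehicle and 530 in the unused library. There the groups overlapped, and the difference of -1.0 did not pass the test (SE 0.38, adjusted p = 0.114).

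*Cpr65Au* lies within a run of 5 members on chromosome 3L, from 6123485 to 6138493 of dm3, together with *Lcp65Ag3*, *Lcp65Ag2*, *Lcp65Ag1* and *Lcp65Ac*, larval cuticle protein genes. The run was picked out after its values were seen. In the fit with no minimum level all 5 fell in WT, where 13.6% of all transcripts fell, and their AMPH libraries all lay below their vehicle libraries, as was so for 18.7% of all transcripts. *Lcp65Ag2* was at 0.165, 0.137, 0.705 and 0.405 RPKM in WT AMPH heads, against 4.61, 5.43 and 2.02 RPKM in WT vehicle heads and 10.9 in the unused library (log2 fold change -1.84, SE 0.28, adjusted p = 0.0051). *Lcp65Ac* differed by -0.76 (SE 0.17, adjusted p = 0.0212). With no minimum, *Lcp65Ag3* differed by -1.03 (SE 0.22, adjusted p = 0.0203) and *Lcp65Ag1* by -0.86 (SE 0.21, adjusted p = 0.0329).

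DAT mutant heads gave estimates nearer to 0 for this run. *Lcp65Ag2* was at 0.520, 0.837 and 0.499 RPKM on AMPH, against 1.0, 1.29 and 1.96 RPKM on vehicle and 3.48 in the unused library (log2 fold change -0.57, SE 0.19, adjusted p = 0.0848). That call was lost with all 15 libraries (adjusted p = 0.495) and without DAT mutant vehicle replicate 3 or 4 or any DAT mutant AMPH replicate (0.119 to 0.253). With no minimum, *Lcp65Ac* differed by -0.56 (adjusted p = 0.0917), *Lcp65Ag1* by -0.42 (adjusted p = 0.208) and *Lcp65Ag3* by -0.24 (adjusted p = 0.377). *Lcp65Ag1*, *Lcp65Ag2* and *Lcp65Ag3* are near-identical copies, so that reads may have been divided among them.

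Other falls passed the test with the minimum level in one strain. *TwdlT*, a Tweedle gene, was at 1.36, 0.783, 1.30 and 1.04 RPKM in WT AMPH heads, against 4.45, 4.11 and 6.15 RPKM in WT vehicle heads and 4.52 in the unused library (log2 fold change -1.47, SE 0.17, adjusted p = 0.00177). The mutant had 0.576, 1.04 and 0.822 RPKM on AMPH, against 1.38, 1.98 and 1.17 RPKM on vehicle and 1.19 in the unused library (-0.46, SE 0.18, adjusted p = 0.125). The groups were separate in both strains, and the vehicle level was lower in the mutant. *Cpr47Ef* fell by 0.75 in WT (adjusted p = 0.0173) and differed by -0.68 in the DAT mutant with no minimum (adjusted p = 0.0553). *Cpr97Ea* fell by 0.53 in WT (adjusted p = 0.0417, and 0.142 without WT vehicle replicate 2). In the DAT mutant *Cpr97Ea* was below the minimum level, at a mean of 0.377 RPKM on AMPH against 0.906 on vehicle. With no minimum it differed there by -0.44 (adjusted p = 0.159).

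In the DAT mutant, *Cpr47Ee* was at 6.24, 11.3 and 15.1 RPKM on AMPH, against 32.5, 21.3 and 22.4 RPKM on vehicle (log2 fold change -1.20, SE 0.28, adjusted p = 0.0241, and 0.265 with all 15 libraries). In WT it was at 4.75 to 17.2 RPKM on AMPH, against 11.8 to 26.6 RPKM on vehicle (-0.52, SE 0.41, adjusted p = 0.435). Its neighbour *Cpr47Ea* fell by 1.25 in the DAT mutant (adjusted p = 0.0219, and 0.141 with all 15 libraries), and with no minimum it also fell in WT (-0.71, adjusted p = 0.0663). *Cpr57A* differed by -0.41 in the DAT mutant (adjusted p = 0.0344) and by -0.53 in WT (adjusted p = 0.134). With all 15 libraries the mutant call was lost (0.595), and the fall in WT was called. The mutant call was also lost without DAT mutant vehicle replicate 1 or 4 or DAT mutant AMPH replicate 2 or 3 (0.102 to 0.124). One listed transcript of *Cpr57A* carries the same values as the odorant-binding protein gene *Obp57d*, with which the gene overlaps. *Cpr62Ba* differed by -0.43 (adjusted p = 0.0811), a call that was lost without any one of the 6 libraries compared (adjusted p 0.105 to 0.2) and with all 15 libraries (0.933).

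*Pcp*, the pupal cuticle protein gene (FBgn0003046, chromosome 2L, 7021682 to 7022473), was the exception to the falls. It was at 5.85, 11.0, 3.85 and 5.24 RPKM in WT AMPH heads, against 0.881, 2.27 and 3.61 RPKM in WT vehicle heads and 3.43 in the unused library. DAT mutant heads gave 15.6, 10.4 and 9.13 RPKM on AMPH, against 3.84, 0.618 and 1.37 RPKM on vehicle and 0.116 in the unused library. AMPH heads lay above vehicle heads in each strain, with log2 fold changes of 1.21 in WT (SE 0.36, adjusted p = 0.059) and 2.23 in the DAT mutant (SE 0.36, adjusted p = 0.00604).

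The WT call of *Pcp* was lost without WT vehicle replicate 2 (adjusted p = 0.179), WT vehicle replicate 3 (0.128) or WT AMPH replicate 2 (0.106). *Pcp* lies in an intron of the purine synthesis gene *ade3* (*Gart*) on the opposite strand, and whether the counting used strand is not given in the sources used here, so reads of the pair cannot be told apart. *ade3* was at 9.89 to 86.2 RPKM in WT AMPH heads, against 8.38 to 10.5 RPKM in the WT vehicle heads used (log2 fold change 1.93, SE 0.62, adjusted p = 0.0747). The mutant had 12.7 to 44.0 RPKM on AMPH, against 9.01 to 12.3 RPKM on vehicle (0.96, SE 0.38, adjusted p = 0.125).

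Several abundant members gave no call for AMPH in either strain. *Cpr72Ec* differed by -0.01 in WT (SE 0.30, adjusted p = 0.993) and by 0.15 in the DAT mutant (SE 0.16, adjusted p = 0.556), with WT AMPH heads at 256 to 629 RPKM and WT vehicle heads used at 363 to 470 RPKM. *Cpr67B* differed by 0.32 in WT (adjusted p = 0.39) and by -0.58 in the DAT mutant (adjusted p = 0.123). *Cpr49Ag* differed by -0.43 and 0.52 (adjusted p = 0.165 and 0.221), *Cpr73D* by -0.23 and -0.12 (0.422 and 0.729), *TwdlG* by -0.46 and -0.11 (0.12 and 0.619) and the ecdysone-dependent gene *Edg78E* by 0.12 and 0.05 (0.714 and 0.893), in WT and in the mutant in each case. Summed over all 56 members, levels were 670 to 1038 RPKM in WT AMPH heads, against 1122 to 1535 RPKM in all 4 WT vehicle heads, and 694 to 765 RPKM in DAT mutant AMPH heads, against 741 to 1495 RPKM in all 4 DAT mutant vehicle heads, which overlapped. Without *Cpr72Ec* the sums were 370 to 461 RPKM in WT AMPH heads, against 692 to 967 RPKM in all 4 WT vehicle heads. In the mutant these were 374 to 390 RPKM on AMPH, against 467 to 1022 RPKM in all 4 vehicle heads.

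Other genes of the cuticle were counted in lists, whose counts are to be read against the 14.8% of all transcripts that fell in WT and the 15.4% that fell in the mutant. With all 15 libraries these shares were 19.5% in WT and 0.78% in the mutant. Of 15 tested genes of tanning, the pathway that hardens and colours cuticle, 9 fell in WT (median difference -0.66) and 9 in the mutant (-0.61). None rose in either strain with the 13 libraries. With all 15 libraries, 9 fell and 1 rose in WT, and 3 fell and none rose in the mutant. The largest falls were those of *yellow-e* (-2.48 in WT and -2.37 in the mutant), *yellow-b* in WT (-1.67), the dopamine N-acetyltransferase gene *AANAT1* (-1.25 and -1.64) and, in the mutant, the tyrosine hydroxylase gene *ple* (-1.34). Among other structural cuticle genes 3 of 8 fell in WT, 4 of 6 fell in the mutant and none rose, led by *Vajk3* in WT (-1.06) and the ZP-domain gene *pio* in both (-0.90 and -0.77). Of genes that make or modify chitin, 3 of 12 fell and 1 rose in WT, and 4 of 11 fell and none rose in the mutant. *Gfat1*, which starts the supply of chitin precursors, fell by 1.34 in WT and 0.98 in the mutant, and the chitin deacetylase gene *serp* fell by 0.96 and 0.93. The gene that rose in WT was *Gfat2* (0.53, adjusted p = 0.0476), which differed by 0.002 in the mutant (adjusted p = 0.995). Of chitinases and their relatives 2 of 12 fell and none rose in WT, and 3 of 13 fell and 1 rose in the mutant. Of 11 transcription factors of cuticle formation 2 fell and 1 rose in WT, and 4 fell and none rose in the mutant. *Hr38* was the one that rose in WT (0.59, adjusted p = 0.0535) and was among those that fell in the mutant (-0.49, adjusted p = 0.0365). Its difference between the responses was not called (-1.08, adjusted p = 0.185). None of the genes of the last 4 lists passed in the DAT mutant with all 15 libraries.

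Markers of other head tissues were counted against the same shares. Of 5 muscle markers 4 fell in WT, 3 fell in the mutant (none with all 15 libraries) and none rose, and over all 15 libraries their summed level was 184 to 243 RPKM in WT AMPH heads, against 454 to 651 RPKM in WT vehicle heads. For the DAT mutant it was 186 to 215 RPKM on AMPH, against 227 to 378 RPKM on vehicle. Of 3 fat body markers 1 fell in WT and 3 in the mutant (2 with all 15 libraries), at sums of 94.2 to 435 RPKM in WT AMPH, 75.5 to 418 in WT vehicle, 99.3 to 162 in DAT mutant AMPH and 201 to 482 in DAT mutant vehicle heads. Photoreceptor markers summed to at least 17430 RPKM in every library, so that transcripts of the eye were present beside those of the brain, with none of 4 called in WT and 2 lower in the mutant. Of 4 neuron markers 2 fell in WT and 1 in the mutant, of 4 glia markers 1 and 3, and of 3 haemocyte markers none was called. The mutant's calls of photoreceptor, neuron and glia markers were all lost with all 15 libraries. Their part in the levels of the cuticle genes was not tested. In a whole head, fewer cells of a type and less RNA per cell cannot be told apart.

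To ask whether the response depends on the transporter gene, the AMPH response of WT was subtracted from that of the DAT mutant in one fit of the 4 groups. None of the 42 members tested was called, beside 0.0558% of 17915 transcripts higher and 0.0893% lower, and none with all 15 libraries. At an unadjusted p under 0.05, 8 of the 42 members and 933 of all transcripts passed. *TwdlT* had the lowest adjusted p, with a difference of 1.01 (SE 0.24, adjusted p = 0.3). *Cpr65Au* differed by 1.67 (SE 0.49, adjusted p = 0.609) and *Lcp65Ag2* by 1.27 (SE 0.36, adjusted p = 0.581), where a positive value is an estimate nearer to 0 in the mutant, and *Cpr49Ae* by -0.73 (SE 0.21, adjusted p = 0.609). A fall called in one strain alone is therefore not shown to differ between the strains.

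The strains were next compared on the same food. On vehicle, 3 members were higher and 6 lower in the DAT mutant than in WT, where 38 were tested, beside 3.87% of all transcripts higher and 4.59% lower. With all 15 libraries 1 was higher and 5 lower, beside 0.43% and 0.654%. On AMPH, 5 were higher and 4 lower among the 32 tested, beside 2.21% and 3.32% of all transcripts, and no library left out of the tests belongs to those groups. Here too the minimum level lets in genes through the group where they are high. With no minimum *TwdlW* was also called on vehicle (adjusted p = 0.0838), *Cpr65Au* was not called on AMPH (0.101), and the other calls stayed. The share of all transcripts called between strains with no minimum was not counted. The 2 comparisons share no library, and 5 members were called in both, 55.6% of each list of 9. Over all transcripts, calls in the same direction on both foods were 29.9% of those on vehicle and 45.4% of those on AMPH, and the difference from the members' share was not tested. The members' median difference was -0.02 on vehicle, as was that of all transcripts, and 0.14 on AMPH, against -0.03 for all transcripts. The 5 members called on both foods were *Cpr51A*, higher in the mutant, and *Cpr97Ea*, *Cpr97Eb*, *Cpr49Af* and *Cpr11B*, lower in the mutant. Of these the vehicle call of *Cpr97Eb* was lost with all 15 libraries.

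**Figure D4:**
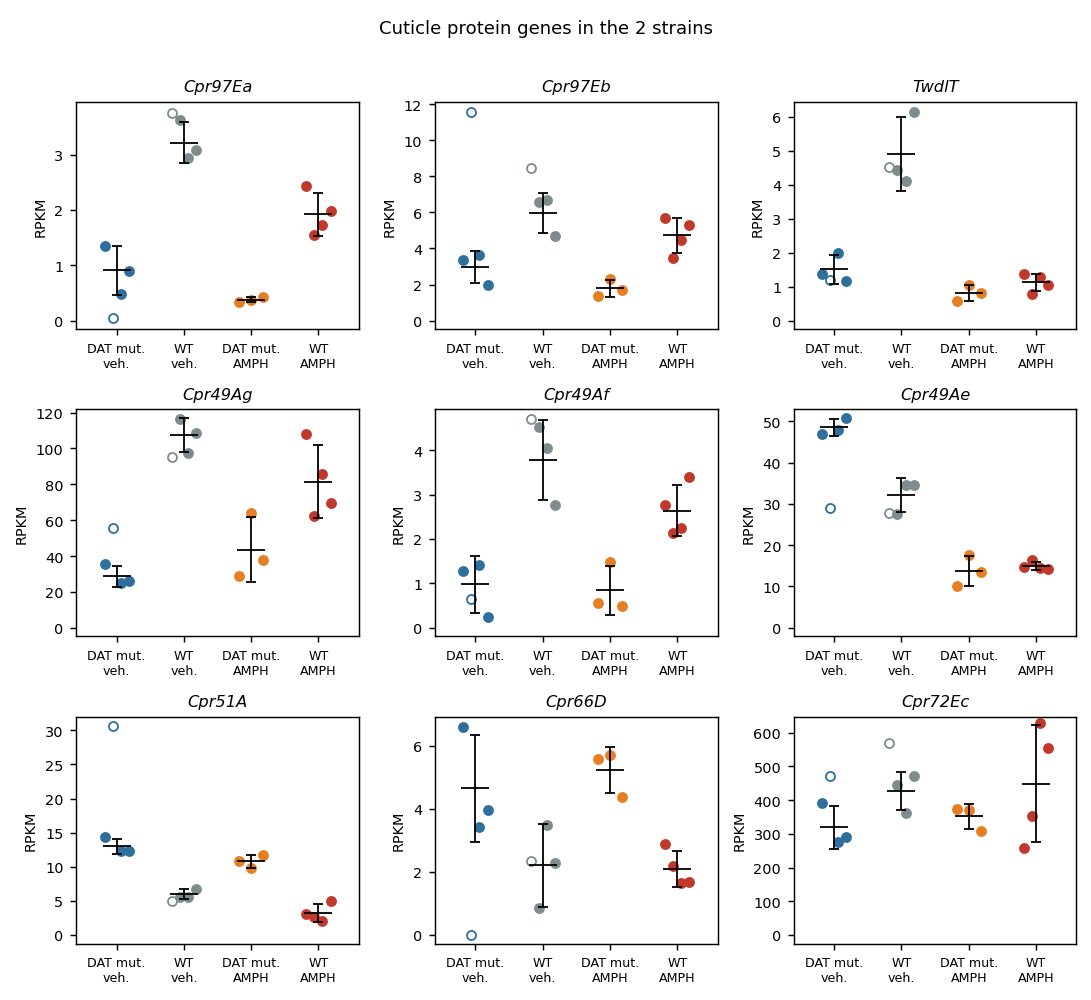
RPKM in each library (points) with mean and SD of the libraries used (bars) for 9 cuticle protein genes, each DAT mutant group to the left of the WT group on the same food. Open points are the 2 libraries left out of the tests, and *Cpr97Ea* is lower in every DAT mutant head than in any WT head on the same food.

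*Cpr97Ea*, *Cpr97Eb* and *TwdlT* lie within 41.9 kb of each other on chromosome 3R (22874947 to 22916845 of dm3). *Cpr97Ea* was at 1.35, 0.472 and 0.893 RPKM in DAT mutant vehicle heads and 0.055 in the unused library, against 3.63, 2.93 and 3.08 RPKM in WT vehicle heads and 3.76 in the unused library (log2 fold change -1.17, SE 0.20, adjusted p = 0.018). On AMPH it was at 0.332, 0.373 and 0.425 RPKM in the mutant, against 2.44, 1.55, 1.73 and 1.97 RPKM in WT (-1.08, SE 0.14, adjusted p = 0.00672). The strains did not overlap on either food.

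*Cpr97Eb* differed by -0.82 on vehicle (SE 0.20, adjusted p = 0.0628) and by -1.04 on AMPH (SE 0.17, adjusted p = 0.0168). Its vehicle call was lost with all 15 libraries (adjusted p = 0.567), among which the unused DAT mutant library was at 11.6 RPKM, and without WT vehicle replicate 2 or 3 or DAT mutant vehicle replicate 1 or 4 (0.105 to 0.189). *TwdlT* was lower in the mutant on vehicle by 1.23 on the log2 scale (log2 fold change -1.23, SE 0.18, adjusted p = 0.0111), and on AMPH it differed by -0.23 (SE 0.16, adjusted p = 0.52).

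Of the 5 members of a 38.2 kb run on chromosome 2R (8264175 to 8302358 of dm3), 3 differed between strains in unlike directions. *Cpr49Ag* was at 35.6, 24.9 and 25.8 RPKM in DAT mutant vehicle heads, against 116, 97.6 and 109 RPKM in WT vehicle heads (log2 fold change -1.88, SE 0.14, adjusted p = 0.000407). The unused libraries, at 55.4 RPKM in the mutant and 95.2 in WT, left the strains apart (-1.60, adjusted p = 0.0362). On AMPH *Cpr49Ag* was at 28.9, 63.8 and 37.6 RPKM in the mutant, against 108, 62.1, 85.9 and 69.6 RPKM in WT, with an overlap (-0.94, SE 0.28, adjusted p = 0.122).

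*Cpr49Af* differed by -1.32 on vehicle (SE 0.28, adjusted p = 0.0373) and by -1.01 on AMPH (SE 0.21, adjusted p = 0.0404), on as few as an estimated 1.40 reads in a mutant library. The vehicle call was lost without WT vehicle replicate 2 (adjusted p = 0.126) or 3 (0.124), and the AMPH call without WT AMPH replicate 4 (0.102) or DAT mutant AMPH replicate 1 (0.141) or 3 (0.182). *Cpr49Ae*, of the same run, was higher in the mutant on vehicle by 0.59 (SE 0.11, adjusted p = 0.0245), with 0.527 when all 15 libraries were used and 0.106 without DAT mutant vehicle replicate 4. On AMPH it differed by -0.14 (adjusted p = 0.723).

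*Cpr11B* was lower in the mutant on both foods, by -1.03 on vehicle (SE 0.22, adjusted p = 0.0373) and -1.22 on AMPH (SE 0.25, adjusted p = 0.0369). The calls were lost without DAT mutant vehicle replicate 4 (adjusted p = 0.129) and without DAT mutant AMPH replicate 1 (0.133) or 2 (0.147). *Cpr60D* differed by 0.77 on vehicle (SE 0.19, adjusted p = 0.0602), a call lost with all 15 libraries (0.226) and without WT vehicle replicate 3 (0.134) or DAT mutant vehicle replicate 3 (0.137) or 4 (0.195). On AMPH it differed by 0.70 (adjusted p = 0.112).

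*Cpr51A* was at 14.3, 12.3 and 12.3 RPKM in DAT mutant vehicle heads and 30.6 in the unused library, against 5.62, 5.58 and 6.81 RPKM in WT vehicle heads and 4.97 in the unused library (log2 fold change 1.0, SE 0.11, adjusted p = 0.00316). On AMPH it was at 10.8, 9.86 and 11.7 RPKM in the mutant, against 3.12, 2.67, 2.06 and 4.99 RPKM in WT (1.53, SE 0.21, adjusted p = 0.00781). The strains were fully separate on both foods. *Cpr51A* (chromosome 2R, 10400047 to 10402713) overlaps *CG30197* on the opposite strand, which averaged 390.9 RPKM and differed by 1.29 on vehicle (adjusted p = 0.00304) and by 1.13 on AMPH (adjusted p = 0.00672), and reads of the pair cannot be told apart. The fall of *Cpr51A* on AMPH in WT (-0.78, SE 0.21, adjusted p = 0.0461) stood beside one of -0.47 for *CG30197* (adjusted p = 0.0789). It was lost without any one of WT vehicle replicates 2, 3 and 4 and WT AMPH replicate 2 (adjusted p 0.102 to 0.151).

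The remaining calls were made on AMPH. *Cpr65Au*, just inside the threshold, differed by 0.81 (SE 0.22, adjusted p = 0.0984), with overlapping groups. That call was lost without any one of WT AMPH replicates 1, 2 and 3 and DAT mutant AMPH replicates 1 and 3 (adjusted p 0.139 to 0.339), and with no minimum level (0.101), a mean of at least 5 RPKM (0.108), centring on medians (0.103), one transcript per gene (0.107) or one fit of the 4 groups (0.191). *Cpr67Fb* was at 3.42 to 6.02 RPKM in the mutant, against 1.54 to 2.82 RPKM in WT (log2 fold change 0.76, SE 0.20, adjusted p = 0.0872), and was lost without WT AMPH replicate 3 or 4 or any mutant replicate (0.148 to 0.209). *TwdlW* was at 1.05 to 1.13 RPKM in the mutant, against 0.193 to 0.390 RPKM in WT (0.72, SE 0.13, adjusted p = 0.0237), and was lost without DAT mutant AMPH replicate 2 (0.113) or 3 (0.118). On vehicle *TwdlW* was below the minimum level, and with no minimum it was higher in the mutant there too (0.63, adjusted p = 0.0838).

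Other lists gave few strain calls. On vehicle 3 tanning genes were higher in the mutant, *e* (0.91), *yellow-c* (0.75) and *ple* (0.53), and *yellow-b* was lower (-1.18), and on AMPH *e* (0.75) and *yellow-c* (0.74) were higher. Of other structural genes 1 was higher and 3 lower on each food, with *Vajk1* higher (1.56 on vehicle and 1.21 on AMPH) and *Vajk3* lower (-1.45 and -0.87) on both. No gene that makes or modifies chitin was called. Among chitinases *Cht5* (0.68) was higher on vehicle, and on AMPH *Cht7* (0.58) was higher and *Hexo1* (-0.53) lower. The transcription factor gene *Hr38* (1.02) was higher on vehicle. With all 15 libraries *e*, *yellow-c*, *Vajk3* and the resilin gene kept their vehicle calls, and *ple*, *yellow-b*, *Vajk1*, *Vajk4*, *Cht5* and *Hr38* lost them. Of the 5 muscle markers 3 were lower in the mutant on vehicle (2 with all 15 libraries) and none was called on AMPH, and 1 of 4 glia markers was lower on AMPH. No other marker was called between strains, and the markers' part in the cuticle results was not tested.

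The corneal lens was looked at through its 4 listed proteins, of which *Cpr72Ec* (chromosome 3L, 16358991 to 16360426) and *Cpr66D* (chromosome 3L, 8633574 to 8636684) are members. *Cpr66D* was at 5.59, 5.70 and 4.38 RPKM in DAT mutant AMPH heads, against 2.89, 2.17, 1.65 and 1.67 RPKM in WT AMPH heads (log2 fold change 1.02, SE 0.16, adjusted p = 0.0154). On vehicle it was at 6.59, 3.42 and 3.96 RPKM in the mutant, against 0.858, 3.47 and 2.28 RPKM in WT (0.87, SE 0.33, adjusted p = 0.199), and the unused mutant library listed it at 0. *Cpr72Ec* differed by -0.42 on vehicle (adjusted p = 0.209) and -0.27 on AMPH (adjusted p = 0.709).

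The crystallin *Crys*, like *Cpr66D*, was higher in the mutant on AMPH. It was at 21.9 to 67.1 RPKM in DAT mutant vehicle heads, against 0.983 to 1.67 RPKM in WT vehicle heads (log2 fold change 3.97, SE 0.27, adjusted p = 0.000222). AMPH heads had 26.9 to 80.6 RPKM in the mutant, against 1.42 to 2.96 RPKM in WT (4.10, SE 0.33, adjusted p = 0.000592). *retinin* fell with AMPH by 1.94 in WT (adjusted p = 0.00339) and by 1.44 in the mutant (adjusted p = 0.00586), and was not called between strains.

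Of the 56 members, 18 lie on chromosome 2R, which also carries *DAT*, and these included 5 of the 9 called on vehicle and 2 of the 9 called on AMPH. Over all transcripts, 9.74% of those on 2R and 8.11% of those elsewhere were called on vehicle, and 6.16% and 5.37% on AMPH. *Cpr51A* lies 2.05 Mb from *DAT*, and *Cpr49Ae*, *Cpr49Af* and *Cpr49Ag* 4.15 to 4.16 Mb from it. An effect of the mutation and one of donor DNA kept beside it through the backcross cannot be told apart for such genes. Across the 5 comparisons, 26 (61.9%) of the 42 members tested in any were called at least once, beside 6468 (36.1%) of the 17915 transcripts tested. The remaining 14 of the 56 members were tested in none. Both shares are of genes that passed the minimum level, and their difference was not tested.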

How the data were processed

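PolyA+ RNA of single heads was sequenced on an Ion Torrent instrument. The authors mapped reads to dm3 with tmap and deposited RPKM per transcript, which are not counts. The annotation behind the table is not given in the sources used here. The 15 single library files held the values of the series table.

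Members and lists were chosen with earlier results of these data known. Library size was estimated from steps between low values of 662 single-exon transcripts, with lengths from a later annotation (BDGP6). Estimated reads are RPKM times length times size.

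limma 3.58.1 (R 4.3.3) was fitted to log2(RPKM + 1) with a mean-variance trend, in place of the study's count test, which RPKM values do not allow. Tests took in transcripts for which the number of libraries at 1 RPKM or above reached the size of the smallest group. The 13 libraries were those whose means match the group means of the study's result table, within 0.0001. P-values were adjusted over all transcripts after Benjamini-Hochberg, with a threshold of 0.1. Genes were matched to lists by symbol or by an older symbol. The text names the 10 members with the highest mean, every member called, the lens list, the highest of each family and up to 3 genes a list. The rest were chosen after their values were seen. Alternatives were all 15 libraries, other filters, thresholds, pseudocounts and scalings, one transcript per gene, a joint fit, a replicate block and leaving out each library. P-values and folds of the authors' own comparisons were not used. The precision of a level is bounded by its estimated reads and by 3 or 4 heads per group.

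On simulated data, 100 transcripts changed by 1 and 100 changed by 2 on the log2 scale were recovered at 88% and 100% for AMPH in WT, at 88% and 99% for AMPH in the mutant, 85% and 97% on vehicle, 83% and 92% on AMPH and 71% and 95% for the difference of responses. The changed transcripts were drawn from those above about 2 RPKM, with normal noise, while the median member averaged 1.93 RPKM. Recovery at the level of the low members was therefore not measured. Of the simulated calls, 9.18% to 10.5% were false in the comparisons. Python 3.11.15, numpy 2.4.6, pandas 2.3.3 and matplotlib 3.10.9 were used.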

Additional observations from a re-analysis of the deposited data

Results flagged for a closer look

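Among 96 groups of 4 libraries of named members, 4 held a library far from the others by Dixon's test at the 95% level, which chance gives in about 1 in 20 groups. Of the 4, 3 were the highest value of DAT mutant vehicle replicate 2, the library left out of the tests. There *Cpr57A* was at 60.7 RPKM against 29.8, 34.0 and 34.9 RPKM in the other DAT mutant vehicle heads. *Cpr51A* was at 30.6 RPKM against 12.3, 12.3 and 14.3 RPKM. *Cpr67Fb* was at 18.5 RPKM against 0.975, 1.93 and 3.69 RPKM. The fourth was *Lcp65Ac* in WT AMPH replicate 2, which at 0.189 RPKM lay below 0.447, 0.466 and 0.472 RPKM in the other WT AMPH heads.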

How the results depend on the processing

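Of 48 changes called for single members, no direction was reversed under any alternative. Of 443 tries of other settings 51 lost the call, and of 313 fits without 1 library 56 lost it. In 30 of the 48 changes every fit without 1 library kept the call. The number of members called in WT was 16 and became 5 with a mean of at least 5 RPKM, a filter that leaves fewer members to test. In the DAT mutant it was 14 and became 7 with all 15 libraries and 8 with that filter. The calls over all transcripts in the DAT mutant went from 3862 to 258 with all 15 libraries. Between strains on vehicle it was 9 and became 5 with that filter, and on AMPH it was 9 and became 1. Leaving out 1 library gave 12 to 18 members called in WT, 11 to 17 in the DAT mutant, 5 to 10 between strains on vehicle (5 without DAT mutant vehicle replicate 4) and 5 to 10 on AMPH (5 without DAT mutant AMPH replicate 3). For the difference between responses 0 members were called under each alternative run. The shares of all transcripts called with the other filter and without single libraries are not given here. Whether the members shifted more than all transcripts was not tested, nor was the cause of these shifts.

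The records do not say whether the replicate numbers pair heads across groups. Correlations of the deviations of same-numbered libraries ran from -0.464 to 0.148. With so few heads per group these cannot show whether there was a pairing. With the replicate number as a block 18 members were called in WT, 10 in the DAT mutant, 1 between strains on vehicle and 2 on AMPH. The shares of all transcripts called with the block are not given here. Low members rest on few reads, such as an estimated 2.98 for *Cpr60D* in a WT AMPH library, and differences at that depth are coarse.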
